A study of Mus musculus with 8 samples.

Results

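The 2 control cultures of a study of neural differentiation were set against each other at day 5, shCtrl over WT, to describe which cell types each had formed. They are 2 of the 8 libraries of the study, chosen by their labels. All came from the mouse embryonic stem cell line 46C (strain label C57BL/6), which carries a green fluorescent protein reporter at the neural gene Sox1. shCtrl names a line with a control short hairpin RNA, whose sequence and vector are not given in the sources used here, and WT is the line labelled as wild type. A knockout line labelled LincNDIME_KO (here KO) and a knockdown line labelled shMef2c make up the rest, and in the study WT served as the control of KO and shCtrl as the control of shMef2c. Each line was profiled by sequencing of polyadenylated RNA at day 0, as stem cells on irradiated embryonic fibroblasts in medium with LIF, a cytokine that holds them undifferentiated, and at day 5, after dissociation and re-aggregation in G-MEM with knockout serum replacement. The day comes from the description of the series, since the labels of the day 5 samples call them progenitors and give no day.

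The shCtrl library held 25996204 estimated reads and the WT library 26834802. Levels are given in FPKM, fragments scaled to gene length and library depth. Of the 21069 features listed over the day 5 libraries, 12845 had a mean of 1 FPKM or more over the pair, and ratios are log2((shCtrl + 1)/(WT + 1)) over those features. There was 1 library per culture, so no difference between cultures could be tested, and counts of genes use a ratio of 2-fold or more each way. Intervals on ratios of read shares are exact 95% binomial intervals and cover counting error only.

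Stem cells that aggregate in serum-free or low-serum medium leave naive pluripotency, pass through a state like the epiblast of the embryo before gastrulation, and mostly become neural progenitors. Aggregates of this kind often also form visceral endoderm, the epithelium that covers the early embryo and secretes carrier proteins for lipids and vitamins, and the primitive blood that arises beside it in the yolk sac. Anterior visceral endoderm is known for secreted inhibitors of Wnt and Nodal signals, beside which the forebrain forms.

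The libraries were close for most genes. The median ratio was 0.02 with an SD of 0.30 over the 12845 genes, 80.9% of them differed by less than 1.25-fold, and 5% lay below -0.37 and 5% above 0.51. At 2-fold or more, 128 genes differed, 0.996% of those tested. In shCtrl 93 were higher, or 0.724%, and 35 were lower, or 0.272%. Every count of list members past 2-fold given below stands beside these shares. The share differing declined with level up to 100 FPKM, from 2.26% of genes with a mean of 1 to 2 FPKM to 0.281% of those with a mean of 20 to 100 FPKM. Above that it was 0.494%, or 4 of 809 genes. Features predicted by the authors made up 39 of the 128, which is 5.32% of the 733 predicted features tested, against 0.735% of the 12112 others. Medians by chromosome, over the autosomes and X, ran from -0.01 on chromosome 5 to 0.09 on chromosome 11, and the 4 genes measured on Y had a median of -0.20.

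**Figure D1:**
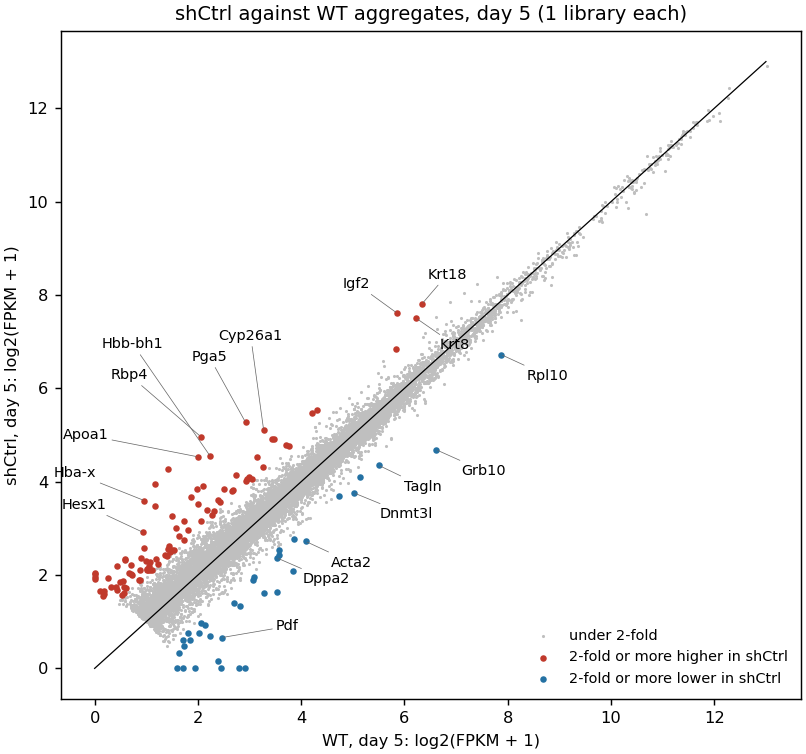
Level of each of the 12845 genes in shCtrl aggregates (vertical axis) and in WT aggregates (horizontal axis), both as log2(FPKM + 1), with 1 library each. Red points are the 93 genes 2-fold or more higher in shCtrl and blue points the 35 that were 2-fold or more lower; the red points labelled are endoderm, globin, keratin and forebrain genes and Igf2.

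Of the 93 genes higher in shCtrl than in WT, 83 had their highest level of the 4 day 5 libraries in shCtrl and 35 had their lowest in WT. Over all genes tested these shares were 33.7% and 15.7%. Of the 35 lower genes, 22 had their lowest level in shCtrl and 16 their highest in WT, against 23.6% and 17.1% of all genes. These counts describe the 4 libraries and use the pair that defined the genes. All 93 were chosen for shCtrl above WT, where 53.8% of all genes had a ratio above 0, and all 35 for the reverse, where 45.9% were below 0. That choice alone raises the shares over those of all genes, so no excess is read from them.

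Mef2c, the transcription factor that the knockdown line was made to reduce, was at 0.50 FPKM in shCtrl (82 reads) and 0.45 FPKM in WT (77 reads), against 0.10 FPKM in KO and 0.12 FPKM in shMef2c. Its ratio of read shares between the controls was 1.10, with a 95% interval of 0.796 to 1.52 that spans 1. The list made for the Mef2 family also holds the deacetylase genes Hdac4, Hdac5, Hdac7 and Hdac9 and the receptor gene Nr4a1. None of its 7 members measured differed by 2-fold, and their median was 0.04. Of the Mef2 genes themselves only Mef2a (ratio 0.24) and Mef2d (0.04) were measured. Mef2b, like Mef2c, was under the minimum, at 0.58 FPKM in shCtrl (19 reads) and 0.14 FPKM in WT (5 reads). Its ratio of read shares was 3.92 (1.42 to 13.4).

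Both aggregates carried the markers of the cells they are labelled as. Sox1, a transcription factor of early neural plate, was at 13.6 FPKM in shCtrl and 15.8 FPKM in WT. Pax6, which patterns the neural tube, was at 12.3 and 12.0 FPKM in shCtrl and WT, and the filament gene Nes, a standard progenitor marker, was at 40.2 FPKM in shCtrl and 45.7 FPKM in WT. None of the 30 neural progenitor genes measured differed by 2-fold, with 15 above 0, 15 below and a median of 0.01. The nearest to it were Sox9, of the later progenitors that turn to glia, at 6.16 FPKM in shCtrl and 3.45 FPKM in WT, and Ptn, a secreted growth factor, at 52.2 FPKM in shCtrl and 82.8 FPKM in WT. Pluripotency genes were still present in both, with Pou5f1 at 131 FPKM in shCtrl and 182 FPKM in WT. In bulk RNA, fewer cells of a type and less RNA per cell cannot be told apart, here and below.

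Visceral endoderm genes had the highest median of the lists among genes past the minimum, and a lower one than neuronal genes with no minimum. Of 36 genes listed for its transport and secreted proteins, 18 were measured and 9 of these were 2-fold or more higher in shCtrl, against 0.724% of all genes. None was lower by 2-fold, and the median was 0.82, against 0.02 over all genes. Those that passed the minimum through a high level in shCtrl had to differ, so the list without a minimum is given too: its median was 0.28. With a mean of 5 FPKM or more it was 1.23. Summed over the list, levels were 434 FPKM in shCtrl and 207 FPKM in WT, beside 610 FPKM in KO and 469 FPKM in shMef2c. Rbp4, which carries retinol in blood, was at 30.2 FPKM in shCtrl and 3.16 FPKM in WT. Its ratio of 2.91 was the highest of all named genes, and its share of reads was 9.51 times that in WT (7.48 to 12.3). Apoa1, the apolipoprotein that builds high-density lipoprotein, was at 22.1 FPKM in shCtrl and 3.00 FPKM in WT, a ratio of 2.53. Pga5, a pepsinogen, was at 37.6 FPKM in shCtrl and 6.58 FPKM in WT, a ratio of 2.35. All 3 encode secreted proteins, and the WT library was also the lowest of the 4 for them: KO held 22.9, 10.0 and 37.5 FPKM and shMef2c 4.55, 8.70 and 24.4 FPKM of Rbp4, Apoa1 and Pga5.

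Ttr, the carrier of thyroid hormone that binds Rbp4, was at 3.97 FPKM in shCtrl (120 reads) and 0.51 FPKM in WT (16 reads). Sfrp5, a secreted Wnt inhibitor of anterior visceral endoderm, was at 13.4 FPKM in shCtrl and 2.95 FPKM in WT. Cyp26a1, which breaks down retinoic acid, was at 33.3 FPKM in shCtrl and 8.67 FPKM in WT. The other 3 members past 2-fold, from 411 to 1377 reads in shCtrl, were Clic6 (ratio 1.80), of the intracellular chloride channel family, the trypsin inhibitor Spink1 (1.23) and the zinc transporter Slc39a8 (1.02). Not every marker followed. Afp, the alpha-fetoprotein of mature visceral endoderm, was near 0 in both, at 0.36 FPKM in shCtrl (19 reads) and 0.30 FPKM in WT (16 reads), while KO held 23.3 FPKM. Amn, part of the receptor by which visceral endoderm takes up proteins, was lower in shCtrl at 0.90 FPKM than in WT at 1.75 FPKM, a ratio of -0.53. Lrp2, a large uptake receptor also made by neural epithelium, was at 6.63 FPKM in shCtrl and 7.62 FPKM in WT. Of the 18 members under the minimum, 8 were higher in shCtrl and 7 lower.

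Transcription factors of endoderm leaned the same way by smaller amounts: 13 of 15 measured were above 0, 2 were 2-fold or more higher, and the median was 0.40 (from 0.20 to 0.65 under the alternatives), where 53.8% of all genes were above 0. Hhex, expressed in anterior endoderm, was at 6.09 FPKM in shCtrl and 2.09 FPKM in WT, a ratio of 1.20. Gata4, which acts in endoderm and heart, was at 3.40 FPKM in shCtrl and 1.03 FPKM in WT, a ratio of 1.12. Below 2-fold were Sox17, needed for definitive endoderm, at 6.17 FPKM in shCtrl and 3.66 FPKM in WT, and Foxa2, of endoderm and floor plate, at 37.4 FPKM in shCtrl and 30.4 FPKM in WT. Cer1, an inhibitor secreted by anterior endoderm, was almost equal at 13.3 FPKM in shCtrl and 12.6 FPKM in WT. The genes of parietal endoderm and basement membrane, the outer endoderm of the yolk sac, had a median of -0.02 over 14 members with none past 2-fold.

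Keratins of simple epithelium, which visceral endoderm and other early epithelia share, were among the most abundant genes that differed. Krt18 was at 224 FPKM in shCtrl and 80.0 FPKM in WT, from 7710 and 2837 reads, with a ratio of read shares of 2.81 (2.69 to 2.93). Its partner Krt8 was at 180 FPKM in shCtrl and 74.2 FPKM in WT, with a ratio of read shares of 2.43 (2.33 to 2.53). WT had the lowest level of the 4 libraries for both, beside 94.6 and 89.0 FPKM in KO and 84.2 and 95.4 FPKM in shMef2c for Krt18 and Krt8, and shCtrl alone stood far above. Of the 18 genes of surface ectoderm and epithelium measured, 15 were above 0 and the median was 0.49, or 0.24 with no minimum. Claudins of tight junctions lay below 2-fold, with Cldn6 highest at 88.6 FPKM in shCtrl and 47.9 FPKM in WT. Tfap2a, a transcription factor of early surface ectoderm, was at 0.61 FPKM in shCtrl and 0.47 FPKM in WT.

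**Figure D2:**
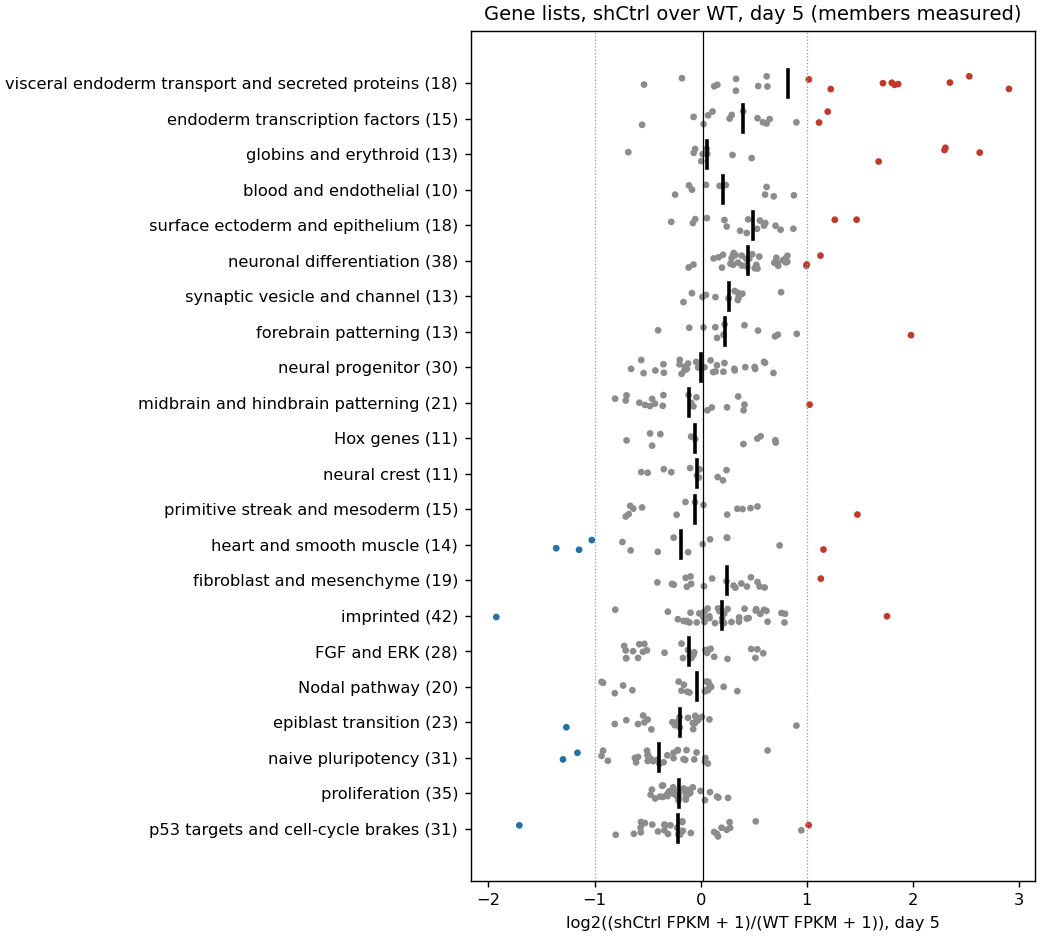
Ratio of every measured member of 22 gene lists, shCtrl over WT at day 5, as log2((FPKM + 1)/(FPKM + 1)); thick black bars are list medians, the thin line is the median of all genes (0.02), dotted lines mark 2-fold, and the number measured stands in brackets. Medians ran from 0.82 in visceral endoderm genes to -0.39 in naive pluripotency genes, with the globins as 4 points far from the rest of their list.

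Embryonic and adult globins, the oxygen carriers of red cells, were higher in shCtrl than in WT and than in the other libraries. Hbb-bh1, an embryonic beta-like globin, was at 22.3 FPKM in shCtrl (310 reads) and 3.73 FPKM in WT (53 reads), a ratio of 2.30, beside 3.22 FPKM in KO and 0.35 FPKM in shMef2c. Hba-x, the embryonic alpha-like globin, was at 11.1 FPKM in shCtrl (160 reads) and 0.95 FPKM in WT (14 reads), a ratio of 2.63. Its share of reads was 11.8 times that in WT, with a wide interval of 6.83 to 22.1 that reflects the few WT reads. Hba-a1, the alpha globin kept into adult life, was at 10.1 FPKM in shCtrl (130 reads) and 1.24 FPKM in WT (16 reads), and Hbb-b1, an adult beta globin, was at 2.84 FPKM in shCtrl (41 reads) and 0.20 FPKM in WT (3 reads). In KO and shMef2c, Hba-x, Hba-a1 and Hbb-b1 were all under 0.6 FPKM.

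The alpha globins are shown by the DNA just before their transcription starts, because 2 of them are near-identical copies whose reads a counting program can split. The sequences are those of RefSeq on GRCm38.p6, 250 bases each, 5′ to 3′ on the coding strand. Capitals mark GATAA, the core bound by GATA factors such as the erythroid Gata1, searched on both strands. Hba-x lies at chr11:32276350-32276599 (+), Hba-a1 at chr11:32283422-32283671 (+) and Hba-a2 at chr11:32296242-32296491 (+).
Hba-x: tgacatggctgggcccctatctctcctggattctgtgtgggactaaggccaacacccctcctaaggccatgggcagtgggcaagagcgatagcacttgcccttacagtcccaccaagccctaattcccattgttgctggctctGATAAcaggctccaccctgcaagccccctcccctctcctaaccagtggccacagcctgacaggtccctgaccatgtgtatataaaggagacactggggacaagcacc
Hba-a1: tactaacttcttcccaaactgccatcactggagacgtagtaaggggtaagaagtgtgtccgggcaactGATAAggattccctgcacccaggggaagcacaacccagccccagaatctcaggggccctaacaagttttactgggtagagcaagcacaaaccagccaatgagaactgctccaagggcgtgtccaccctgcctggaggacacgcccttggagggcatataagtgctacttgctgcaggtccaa
Hba-a2: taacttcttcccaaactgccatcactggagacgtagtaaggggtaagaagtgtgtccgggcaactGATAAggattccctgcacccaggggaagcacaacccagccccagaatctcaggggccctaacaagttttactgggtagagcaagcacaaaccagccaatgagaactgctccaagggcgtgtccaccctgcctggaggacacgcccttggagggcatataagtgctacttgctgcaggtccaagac

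Each held 1 GATAA, at positions -107, -182 and -185 from the start, as did 22.6% of the 32851 mouse promoters of the same length (7418 promoters). The Hba-a1 and Hba-a2 sequences were identical over their 247 shared bases, and their transcripts at 537 of 538 aligned bases. Summed, the 2 genes were at 11.2 FPKM in shCtrl (144 reads) and 1.37 FPKM in WT (18 reads), a ratio of 2.36, so the difference did not depend on how reads were divided between them. Summed over Hbb-b1 and its close relative Hbb-b2, the levels were 3.39 FPKM in shCtrl and 0.34 FPKM in WT.

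The rest of the erythroid list differed by less. Of 28 genes, 13 were measured, 4 were 2-fold or more higher in shCtrl and none lower, and the median was 0.06. With no minimum the median was 0.17 and with TPM 0.43, and 12 of the 14 members under the minimum were higher in shCtrl. The share of all genes under the minimum that were higher in shCtrl was not computed. Other lists leaned either way there, with 14 of 14 synaptic genes higher and 10 of 11 germ cell genes lower. The erythroid count is thus not read as a trait of that list. Gata1, the transcription factor of red cell precursors, was at 0.27 FPKM in shCtrl (13 reads) and 0.22 FPKM in WT (11 reads), too few to set the cultures apart. Of 10 measured genes of vessels and blood precursors none reached 2-fold with the pseudocount of 1, and the median was 0.21. Cd34, on endothelial and blood stem cells, was at 2.44 FPKM in shCtrl and 0.87 FPKM in WT, a ratio of 0.88 that was past 2-fold with a pseudocount of 0.1 (1.39), with TPM (1.06) and with either set of count factors. Its ratio of read shares was 2.86 (2.10 to 3.94). The endothelial cadherin Cdh5 was at 1.22 FPKM in shCtrl (125 reads) and 0.39 FPKM in WT (41 reads), with a ratio of read shares of 3.15 (2.20 to 4.59). The receptor Kdr was at 0.61 FPKM in shCtrl (86 reads) and 0.23 FPKM in WT (33 reads), with a ratio of read shares of 2.69 (1.78 to 4.15), and both were under the minimum of 1 FPKM. Pecam1, an adhesion molecule that stem cells also carry, was at 5.36 FPKM in shCtrl and 5.73 FPKM in WT.

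**Figure D3:**
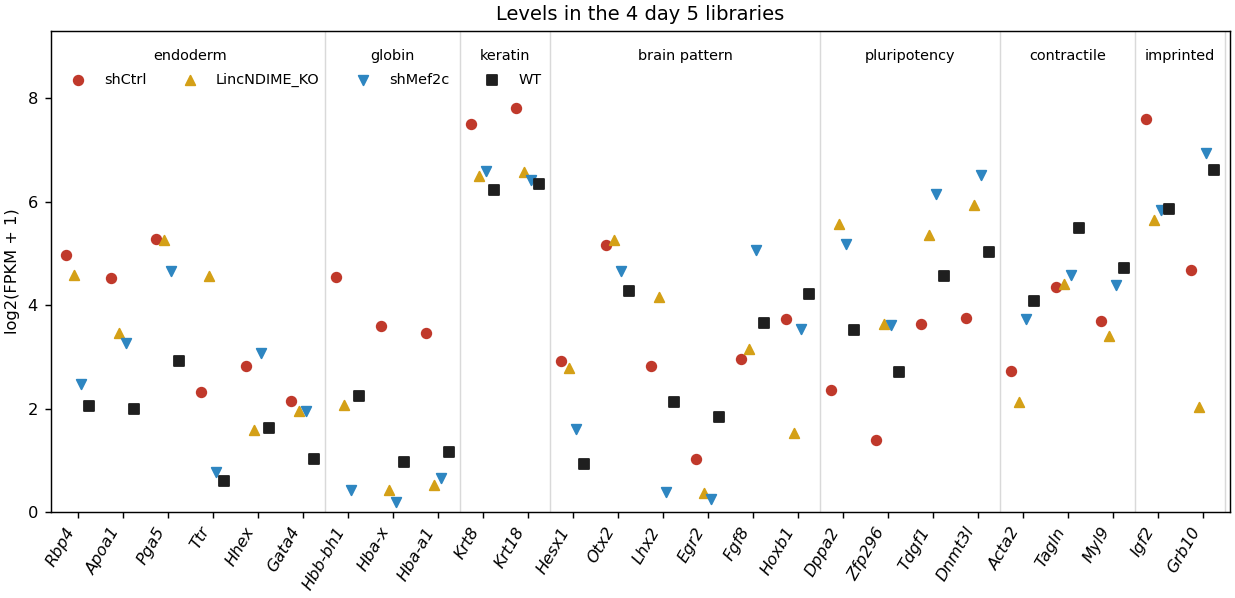
Levels of 26 genes in the 4 day 5 libraries as log2(FPKM + 1), with shCtrl as red circles, KO as yellow triangles, shMef2c as blue triangles and WT as black squares, 1 library each. The globins were high in shCtrl alone, Krt8, Krt18 and Igf2 were highest there, and Grb10 was lower in shCtrl than in WT and shMef2c and lowest in KO.

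Genes of differentiating neurons were higher in shCtrl almost throughout, by less than 2-fold in most. Of 38 measured, 36 were above 0, a share above that of all genes, with a median of 0.45 and 2 members past 2-fold. Nhlh2, a transcription factor of newborn neurons, was at 13.1 FPKM in shCtrl and 5.43 FPKM in WT, a ratio of 1.13. Lhx5, of early forebrain and spinal neurons, was at 4.78 FPKM in shCtrl and 1.89 FPKM in WT, exactly at the 2-fold line. Just short of it, at 0.996, was the neurofilament gene Nefl, with 94.4 FPKM in shCtrl and 46.8 FPKM in WT. Genes of the neuronal skeleton and growth cone leaned the same way by less: Tubb3, the neuronal tubulin, was at 148 FPKM in shCtrl and 109 FPKM in WT, Dcx, of migrating neurons, at 7.09 FPKM in shCtrl and 3.63 FPKM in WT, and Gap43, of growing axons, at 44.0 FPKM in shCtrl and 24.5 FPKM in WT. Neurog2, which starts neuronal differentiation, was at 4.74 FPKM in shCtrl and 3.03 FPKM in WT. Summed over the list, levels were 782 FPKM in shCtrl and 541 FPKM in WT, above 454 FPKM in KO and 199 FPKM in shMef2c. Genes of synaptic vesicles and channels, which come later, had 11 of 13 measured members above 0, a median of 0.26 and none past 2-fold, with Snap25 at 4.65 FPKM in shCtrl and 2.34 FPKM in WT.

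Naive pluripotency genes were the reverse; whether their share and the neuronal and endoderm differences depend on each other was not tested. Of 31 measured, 27 were below 0, against 45.9% of all genes, the median was -0.39 and 2 were 2-fold or more lower in shCtrl. Zfp296, a zinc finger gene of stem cells, was at 1.64 FPKM in shCtrl and 5.49 FPKM in WT, a ratio of -1.30. Dppa2, a chromatin gene of early embryos and stem cells, was at 4.16 FPKM in shCtrl and 10.5 FPKM in WT, a ratio of -1.16. Nanog was at 36.7 FPKM in shCtrl and 47.0 FPKM in WT, and Zfp42 (Rex1) at 24.2 FPKM in shCtrl and 36.9 FPKM in WT, each below 2-fold, as was Esrrb at 6.68 FPKM in shCtrl and 9.22 FPKM in WT. Sox2, shared by stem cells and neural progenitors, was close to even at 103 FPKM in shCtrl and 98.4 FPKM in WT. Summed over the list, levels were 1085 FPKM in shCtrl and 1451 FPKM in WT, both under the 3214 FPKM of KO and 3779 FPKM of shMef2c.

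Genes of the epiblast transition gave a median of -0.20 over 23 members, with 20 below 0. Dnmt3l, a cofactor of DNA methylation, was at 12.5 FPKM in shCtrl and 31.5 FPKM in WT, a ratio of -1.27. Nodal, a signal of epiblast and gastrulation, was at 5.38 FPKM in shCtrl and 10.2 FPKM in WT, and its co-receptor Tdgf1 was at 11.4 FPKM in shCtrl and 22.7 FPKM in WT. Fgf5, the standard epiblast marker, hardly differed at 7.95 FPKM in shCtrl and 8.72 FPKM in WT. The single clear exception was Otx2, which is also a gene of anterior endoderm and forebrain, at 35.0 FPKM in shCtrl and 18.2 FPKM in WT. Tdh, a threonine-degrading enzyme on which mouse stem cells rely, was at 16.1 FPKM in shCtrl and 34.2 FPKM in WT, a ratio of -1.04. Cell division genes leaned the same way by little, with 29 of 35 below 0 and a median of -0.21. Ccne1, at 45.0 FPKM in shCtrl and 62.8 FPKM in WT, had the largest ratio. The 5 above 0 included the defining members Mki67, at 49.7 FPKM in shCtrl and 44.6 FPKM in WT, and Top2a, at 197 and 176 FPKM. The defining member Ccnb1 was lower in shCtrl, at 161 FPKM against 175 FPKM in WT.

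**Figure D4:**
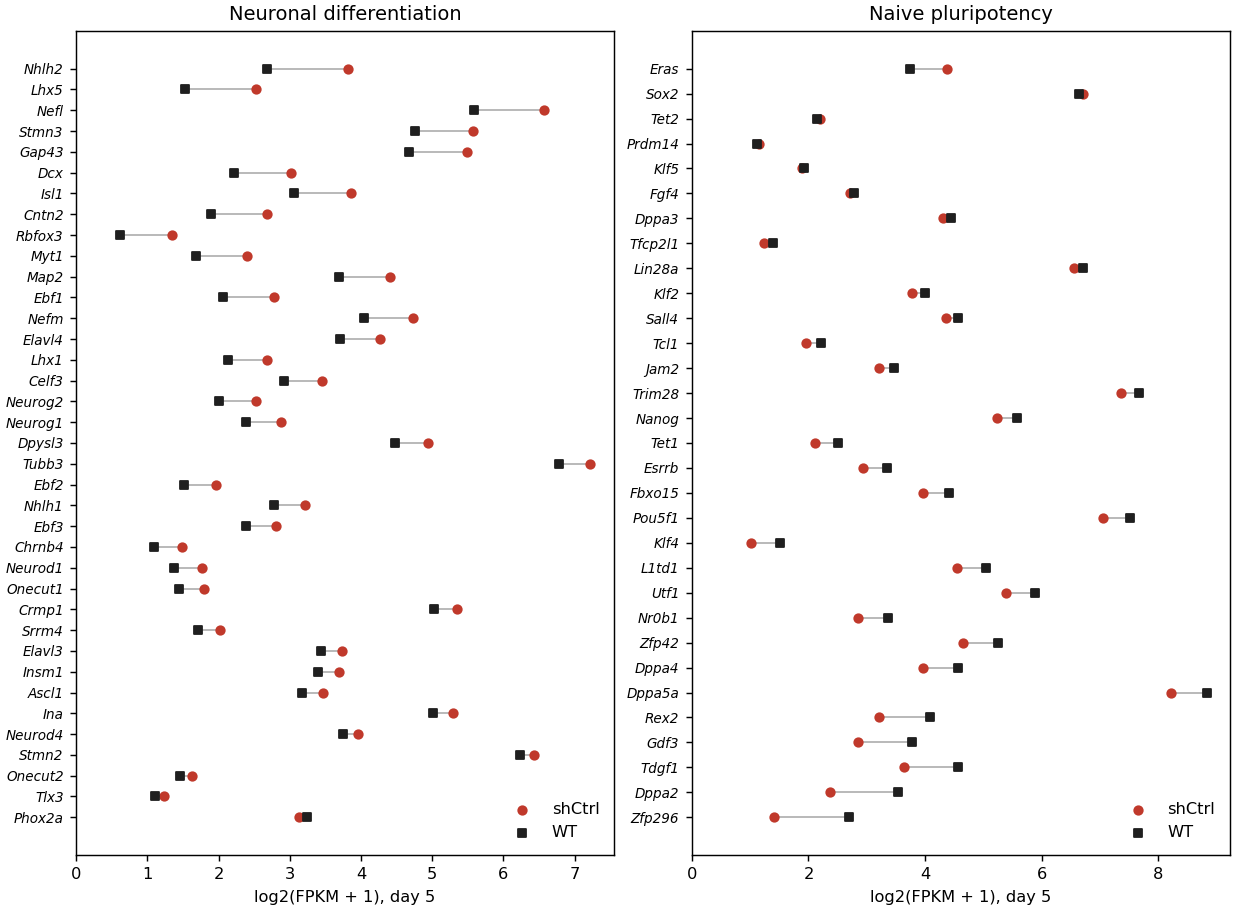
Level of measured neuronal differentiation genes (left, all but 1 of the 38) and naive pluripotency genes (right, 31 genes) at day 5 as log2(FPKM + 1), red circles for shCtrl and black squares for WT, 1 library each, joined by a line and ordered by ratio. In the left panel 36 red circles lie to the right of the black squares and 1 to the left, the gene not drawn being also below 0 and not reported here, and in the right panel 27 lie to the left.

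Regional genes of the brain differed by position. Of 13 forebrain genes measured, 11 were above 0, the median was 0.23 and 1 passed 2-fold. Hesx1, of the anterior neural plate and the pituitary, was at 6.55 FPKM in shCtrl (191 reads) and 0.91 FPKM in WT (27 reads), a ratio of 1.98. Six3, of the most anterior forebrain and eye field, was at 1.83 FPKM in shCtrl and 0.51 FPKM in WT, with a ratio of read shares of 3.62 (2.62 to 5.08). Lhx2, also of forebrain and eye field, was at 6.12 FPKM in shCtrl and 3.38 FPKM in WT.

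Midbrain and hindbrain genes gave a median of -0.11, or -0.39 with a mean of 5 FPKM or more, with 14 of 21 below 0. Egr2, of hindbrain segments, was at 1.03 FPKM in shCtrl and 2.55 FPKM in WT, a ratio of -0.81. Fgf8, the signal of the boundary between midbrain and hindbrain, was at 6.73 FPKM in shCtrl and 11.6 FPKM in WT. Hoxa2, the most anterior Hox gene of the hindbrain, was at 11.7 FPKM in shCtrl and 19.6 FPKM in WT, and Hoxb1, of a single hindbrain segment, at 12.4 FPKM in shCtrl and 17.6 FPKM in WT. Against these 4, Wnt1, of the midbrain roof and its boundary, was at 3.28 FPKM in shCtrl and 1.10 FPKM in WT, a ratio of 1.03. Hox genes of more posterior levels were low and leaned higher in shCtrl, such as Hoxb4 at 2.27 FPKM in shCtrl and 1.21 FPKM in WT and Hoxb7 at 1.90 FPKM in shCtrl (59 reads) and 0.78 FPKM in WT (25 reads). The median over the 11 Hox genes measured was -0.05. Of the 15 under 1 FPKM, 13 were higher in shCtrl, with no share over all genes under 1 FPKM computed to set beside it. The sign of the median turned with the minimum, at 0.22 with none and -0.47 with a mean of 5 FPKM or more.

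Retinoid genes lay on both sides. Besides Rbp4, Ttr and Cyp26a1, the receptor gene Rarb, itself induced by retinoic acid, was at 3.56 FPKM in shCtrl and 1.08 FPKM in WT, a ratio of 1.13. Crabp1, which binds retinoic acid in the cell, was the most abundant of them and lower in shCtrl, at 850 FPKM against 1634 FPKM in WT, a ratio of -0.94 from 16457 and 32412 reads. The median over 26 retinoid genes was -0.01.

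Signalling genes showed few differences of 2-fold. In the Wnt list 2 of 30 members were higher and none lower: Sfrp5, given above, and the receptor Fzd5, which acts in eye field and endoderm, at 9.58 FPKM in shCtrl and 3.50 FPKM in WT. The targets Axin2, at 6.53 FPKM in shCtrl and 7.82 FPKM in WT, and Lef1, at 4.03 FPKM in shCtrl and 5.94 FPKM in WT, were lower in shCtrl by less than 2-fold, and the target Sp5 was higher, at 7.71 FPKM in shCtrl and 6.37 FPKM in WT. The Wnt list had a median of 0.11 with 16 of 30 above 0. Of 28 genes of FGF signalling none passed 2-fold, and the feedback inhibitors that follow its activity were lower in shCtrl, Dusp6 at 18.3 FPKM against 29.1 FPKM in WT and Il17rd at 8.90 FPKM against 15.1 FPKM in WT. Nodal targets that inhibit Nodal were also lower in shCtrl, Lefty1 at 26.6 FPKM against 42.2 FPKM in WT and Lefty2 at 6.99 FPKM against 12.3 FPKM in WT, in a list with a median of -0.03. BMP signalling genes had a median of 0.27 over 23 members, with Tgfb2, a ligand of the wider family, at 8.81 FPKM in shCtrl and 3.82 FPKM in WT and Fst, which binds activin, at 14.7 FPKM in shCtrl and 29.1 FPKM in WT. Notch (0.09) and hedgehog (-0.08) lists had medians close to that of all genes and no member past 2-fold.

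Mesoderm and muscle genes did not move as 1 group. T, the defining gene of the primitive streak, was at 36.6 FPKM in shCtrl and 40.5 FPKM in WT, and the list had a median of -0.05 over 15 members. Meox1, of somites, was the exception at 4.18 FPKM in shCtrl (235 reads) and 0.86 FPKM in WT (50 reads), beside 0.07 FPKM in KO and 7.58 FPKM in shMef2c. Smooth muscle genes were lower in shCtrl. Acta2, the smooth muscle actin, was at 5.60 FPKM in shCtrl and 16.0 FPKM in WT, a ratio of -1.36. Tagln, an actin-binding protein of smooth muscle, was at 19.4 FPKM in shCtrl and 44.2 FPKM in WT, a ratio of -1.15, and Myl9, the regulatory myosin light chain, was at 12.0 FPKM in shCtrl and 25.5 FPKM in WT, a ratio of -1.03. The atrial light chain Myl7 was higher in shCtrl instead, at 4.11 FPKM (56 reads) against 1.29 FPKM in WT (18 reads), and the heart genes Tnnt2 and Myh6 were under 1 FPKM in both. Over the 14 members of heart and smooth muscle measured the median was -0.19, with 3 lower by 2-fold and 1 higher, and it was 0.01 with no minimum and -0.88 with a mean of 5 FPKM or more. These genes also mark activated fibroblasts, and which cells they came from was not tested. Of fibroblast collagens, Col3a1 was higher in shCtrl, at 4.90 FPKM against 1.69 FPKM in WT. Col1a1 was almost equal, at 1.32 FPKM in shCtrl and 1.27 FPKM in WT, and Col1a2 was lower in shCtrl, at 3.74 FPKM against 5.29 FPKM in WT.

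The contractile genes are known targets of serum response factor, which binds the CArG box, and the upstream DNA of 2 of them is shown for that reason. Sequences are as above, Myl9 at chr2:156775214-156775463 (+) and Acta2 at chr19:34255374-34255623 (-), with the CArG box in capitals, searched on both strands.
Myl9: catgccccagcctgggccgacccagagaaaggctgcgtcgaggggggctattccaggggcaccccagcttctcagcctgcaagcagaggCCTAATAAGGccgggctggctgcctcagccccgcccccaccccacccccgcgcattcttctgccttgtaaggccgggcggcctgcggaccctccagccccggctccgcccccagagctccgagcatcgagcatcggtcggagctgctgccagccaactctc
Acta2: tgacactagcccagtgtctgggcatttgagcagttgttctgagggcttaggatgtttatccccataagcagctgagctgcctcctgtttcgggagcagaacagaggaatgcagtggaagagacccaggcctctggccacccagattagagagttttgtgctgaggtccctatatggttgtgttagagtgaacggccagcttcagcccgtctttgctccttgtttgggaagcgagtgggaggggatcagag

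Only the strict form of the CArG box was searched, with nothing but A or T between CC and GG. Myl9 held 1 match, at position -161 from the start, and these 250 bases of Acta2 held 0 matches to that form. Acta2 does hold ccctatatgg and ccttgtttgg, each of which misses it by 1 base, so looser CArG boxes were not counted. Of the 32851 promoters, 482 held the strict form, or 1.47%. A match describes letters only and was not linked to the levels.

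Among imprinted genes, expressed from 1 parental copy, the 2 with the largest ratios lay in opposite directions. Igf2, a growth factor of embryo and yolk sac, was at 195 FPKM in shCtrl (15283 reads) and 56.9 FPKM in WT (4844 reads), a ratio of 1.76, beside 49.4 FPKM in KO and 56.2 FPKM in shMef2c. The other 3 libraries thus lay close together and shCtrl alone was high. Its neighbour H19, which shares its control region, was at 0.64 FPKM in shCtrl (37 reads) and at 0 reads in WT, and was under the minimum. Grb10, an adaptor that restrains insulin and IGF receptor signals, was at 24.7 FPKM in shCtrl (3228 reads) and 96.8 FPKM in WT (13021 reads), a ratio of -1.93. It was the lowest ratio of all named genes, and the share of reads in shCtrl was 0.256 of that in WT (0.246 to 0.266). KO was lower still at 3.06 FPKM and shMef2c higher at 122 FPKM, so the controls lay inside the range of the 4 libraries. Over the 42 imprinted genes measured, 31 were above 0 and the median was 0.20, and Mest, a mesoderm-specific transcript, was at 175 FPKM in shCtrl and 306 FPKM in WT.

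Some of the other large ratios came from genes with close copies or few reads. Gstp2, a glutathione transferase, was at 1.52 FPKM in shCtrl and 5.99 FPKM in WT, but its transcript was 94.5% identical to that of Gstp1, and summed with it the levels were 124 FPKM in shCtrl and 123 FPKM in WT. Btg3, a brake on proliferation, had 0 reads in shCtrl and 73.8 reads in WT, also when summed with its copy Gm7334. The histone gene Hist2h2aa1 was at 2.16 FPKM in shCtrl and 0.07 FPKM in WT, and summed with Hist2h2aa2 at 2.16 FPKM in shCtrl and 0.93 FPKM in WT. Rpl10, a ribosomal protein gene of a family with many pseudogenes, was at 105 FPKM in shCtrl and 233 FPKM in WT, while the 29 ribosomal protein genes listed had a median of 0.01. Summed over copies, neither Gstp2 (ratio 0.01) nor Hist2h2aa1 (ratio 0.71) was past 2-fold, and the values of Rpl10 are uncertain. At the 2-fold line itself lay Vegfa, the endothelial growth factor, just inside at 26.4 FPKM in shCtrl and 12.6 FPKM in WT (ratio 1.01), and Sct, secretin, just outside at 9.67 FPKM in shCtrl and 4.37 FPKM in WT (ratio 0.99). On the lower side Myl9 lay just inside and Fst just outside (ratio -0.94).

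The same lines at day 0, in libraries that the day 5 ratio does not use, were set against each other in the same way. There 151 of 11921 genes passed 2-fold, or 1.27%, with 90 higher in shCtrl (0.755%) and 61 lower (0.512%). Of 10747 genes measured on both days, 24 were higher and 16 lower at day 5, and 60 were higher and 38 lower at day 0. None passed 2-fold in the same direction on both days, and 2 did so in opposite directions. With so few genes past 2-fold on either day, unrelated sets would share few or none, so nothing is read from this overlap. Of the 93 genes higher at day 5, 35 were listed at day 0 with a mean under 1 RPKM (reads scaled to gene length and depth), and of the 35 lower none was. A further 34 of the higher and 19 of the lower had no entry in the day 0 table used here, which says nothing of their level. Of all 12845 genes tested at day 5, 10747 had a mean of 1 RPKM or more at day 0. The remainder was not split into scarce and unlisted genes, so these counts are not read as a trait of the genes that differed. Krt18, at 6.38 RPKM in shCtrl and 9.94 RPKM in WT, and Igf2, at 12.3 RPKM in shCtrl and 13.9 RPKM in WT, were lower in shCtrl at day 0, by less than 2-fold, and higher at day 5. Naive pluripotency genes had a median of 0.15 at day 0, with 27 of 32 above 0 (51.2% of all genes were), and of -0.39 at day 5. Other lists had day 0 medians at least as far from 0. Examples are cytosolic ribosomal proteins (0.27), mitochondrial respiration (0.23) and, on the other side, interferon and RNA sensing (-0.18). A day 0 shift of this size was therefore not particular to pluripotency genes. Targets of p53 and cell-cycle brakes had a median of 0.55 at day 0, with 7 of 32 higher by 2-fold, and of -0.21 at day 5. At day 5, 21 of 31 measured were below 0, against 45.9% of all genes, and they did not all lean that way. By 2-fold 1 was lower, Btg3, and 1 was higher, Cdkn2a, at 4.59 FPKM in shCtrl (102 reads) and 1.76 FPKM in WT (40 reads), a ratio of 1.02. Cdkn1a, the main p53-induced brake, was at 96.6 RPKM in shCtrl and 78.7 RPKM in WT at day 0 and at 29.7 FPKM in shCtrl and 52.5 FPKM in WT at day 5. The tables of the days were made separately, so levels are compared within a day.

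**Figure D5:**
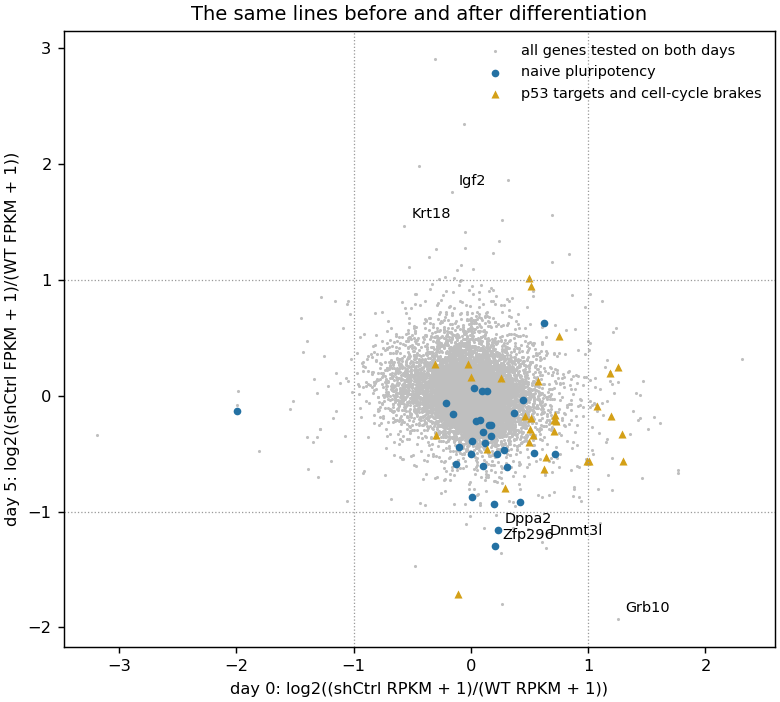
Ratio of shCtrl to WT for the 10747 genes measured on both days, at day 0 (horizontal axis, from RPKM) and at day 5 (vertical axis, from FPKM), as log2 of values plus 1, with dotted lines at 2-fold. Naive pluripotency genes (blue) lie mostly above 0 at day 0 and below 0 at day 5, and p53 targets and brakes (yellow) mostly above 0 at day 0. No gene lies past 2-fold in the same direction on both days, and few lie past it on either day.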

How the data were processed

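Groups were taken from the labels. Each day 5 file, as the authors deposited it, lists a gene's FPKM and its expected count, an estimated count that need not be whole, per the file headers. For day 0, the authors deposited a table of RPKM and estimated counts, per the file headers. Tools named in the submitters' processing notes, with no role or version, are RSEM, HISAT, HISAT2, Bowtie and Bowtie2, and the mouse build is mm9. No source used here says whether strand was used in counting, so reads of a gene and of its antisense or overlapping partner cannot be told apart. Absent genes were taken as 0 (the lowest FPKM listed was 0.01).

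Ratios used a pseudocount of 1, which makes differences of scarce genes smaller, and a minimum mean of 1 over the pair. Nothing was tested, with 1 library a group. The genes, the 46 lists and the rules were chosen with earlier results of these data known. Lists gave 1143 of 1151 entries found in the files, and many genes stand in several lists. Named genes were those with 20 reads or more over the pair and the 25 highest and 25 lowest ratios (without predicted, numbered, unnamed and small nucleolar RNA genes), in each list its 3 defining members and those at 2-fold or, where none was, the 3 largest, and the Mef2 family. Other genes named (Pou5f1, Sox2, Nefl, Gap43, Cldn6, Cer1, Amn, Lrp2, Mest and Slc16a1) were chosen after their values were seen. The values of some genes are not reported here.

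Read-share intervals were computed with scipy 1.17.1 at the 95% level. Alternatives were pseudocount 0.1, no minimum or a mean of 5, centring, TPM, TMM factors (edgeR 4.0.16) and size factors (DESeq2 1.42.0) on rounded counts, folds of 1.5 and 4, named genes only, and 20 reads or more. The calculation was tested on simulated data. RefSeq names and promoters are of GRCm38.p6, which differs from mm9, so file coordinates were not used.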

Additional observations from a re-analysis of the deposited data

Results flagged for a closer look

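In 2 genes, shCtrl differed from WT by 2-fold or more in opposite directions on the 2 days. The difference between the days was not tested, since each rests on 1 library per culture. Grb10 had a ratio of -1.93 at day 5, with 24.7 FPKM in shCtrl and 96.8 FPKM in WT, and of 1.25 at day 0, with 15.6 RPKM in shCtrl and 5.94 RPKM in WT. At day 0 Grb10 was at 6.29 RPKM in KO and 16.1 RPKM in shMef2c. LOC106029237, a gene with no role given in the tables used here, had a ratio of -1.10 at day 5, with 0.95 FPKM in shCtrl and 3.19 FPKM in WT, and of 1.10 at day 0, with 3.51 RPKM in shCtrl and 1.10 RPKM in WT. It was far higher in KO, at 35.0 FPKM at day 5 and 23.6 RPKM at day 0.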

How the results depend on the processing

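The count of genes past 2-fold at day 5 (128, with 93 higher and 35 lower in shCtrl) depended on how scarce genes were treated. It was 330 (227 and 103) with a pseudocount of 0.1, 218 (157 and 61) with TPM, 352 (225 and 127) with TMM factors, 364 (237 and 127) with DESeq2 size factors, and 57 (41 and 16) with a mean of 5 or more. At 1.5-fold it was 676 (442 and 234) and at 4-fold 14 (10 and 4). With named features only it was 81, 17 of them lower. It was 154 with no minimum, 120 with centring and 122 with 20 reads or more. The 128 genes were all among those counted with TPM, a pseudocount of 0.1 or no minimum, and 127 of them with either set of count factors. The day 0 count of 151 was 306 with a pseudocount of 0.1 and 83 with a mean of 5 or more.

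Of 318 list medians under alternatives, 271 moved by less than 0.1. Of 19 lists with a median of 0.2 or more in size, 16 kept its sign under all of these settings and 3 reversed: fibroblast genes at -0.011 with a mean of 5 or more, germ cell genes at -0.090 with no minimum and histone genes at -0.017 with TPM. Among smaller medians, that of Hox genes (-0.05) was 0.22 with no minimum and 0.34 with TPM. Of 59 named genes past 2-fold, none changed sign and 55 stayed past it under every setting that gave a value. The cause of these changes was not tested. No paired analysis was possible because each group has 1 library, and for the same reason there was no replicate to leave out. Differences between cultures of 1 line cannot be told apart from differences between the lines.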

Other observations

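Most genes of placental trophoblast were above 0 in shCtrl over WT, with a median of 0.26 when no minimum was set. Of 10 measured, 9 were above 0, against 53.8% of all genes, and the median was 0.43, with none past 2-fold. The member below 0 was Cdx2, which specifies trophoblast and later the posterior body, at 1.06 FPKM in shCtrl (57 reads) and 2.02 FPKM in WT (112 reads), a ratio of -0.55. Tpbpa, a marker of the spongy layer of mouse placenta, was at 2.10 FPKM in shCtrl (71 reads) and 0.58 FPKM in WT (20 reads). Outside that list, Ctsj, a cathepsin of the rodent placenta, was at 4.04 FPKM in shCtrl (126 reads) and 0.50 FPKM in WT (16 reads), and Prl2c5, a placental hormone gene with close relatives, was at 2.15 FPKM in shCtrl (44 reads) and 0.14 FPKM in WT (3 reads). Tpbpa, Ctsj and Prl2c5 passed the minimum only through their level in shCtrl, so they had to be higher there. Elf5, which defines trophoblast stem cells, was near 0 in both, at 4 reads in shCtrl and 2 in WT.

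Malat1, a nuclear noncoding RNA, was at 16.6 FPKM in shCtrl (2992 reads) and 5.68 FPKM in WT (1055 reads), beside 12.2 FPKM in KO and 2.29 FPKM in shMef2c. Snhg10, a host gene of small nucleolar RNA, had 35 reads in shCtrl and 0 in WT. The small nucleolar and host list had a median of 0.60 over 13 members, 3 of them higher and 1 lower by 2-fold. The median was 0.46 with no minimum, 0.34 with TPM and 0.32 with a mean of 5 FPKM or more. Of the members past 2-fold, Snora78 rested on 7 reads in shCtrl and 0 in WT. Snora70, the lower one, rested on 1 read in shCtrl and 6 in WT, too few to set the cultures apart.

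Several groups were near the median of all genes, with no member past 2-fold: interferon and RNA sensing (0.05), cholesterol synthesis (0.09), amino acid and unfolded protein stress (0.03), mitochondrial respiration (0.00) and cytosolic ribosomal proteins (0.01). Slc16a1, a lactate transporter, chosen after its values were seen, was at 114 FPKM in shCtrl and 55.9 FPKM in WT, beside 49.7 FPKM in KO and 102 FPKM in shMef2c.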
